A study of Mus musculus with 6 samples.

Results

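Igfn1, the 3 myomesin genes Myom1, Myom2 and Myom3, the obscurin-like gene Obsl1 and the myosin-binding protein genes Mybpc1, Mybpc2 and Mybph encode muscle proteins built from immunoglobulin and fibronectin domains. These 8 genes were taken by symbol from a matrix of 23314 genes, and each symbol matched 1 row. The set was drawn up with the values of the same comparison in view, Igfn1 having stood out in it. Differences of the 8 genes between the genotypes are therefore given as a description, and no test is used to support them. RNA was measured in mouse quadriceps, a thigh muscle made largely of fast fibres, at 2 months of age. K15SKO mice had the genotype Myogenin-Cre/+;K15F/F, in which Cre recombinase removes floxed Klf15 in muscle, and gave 3 libraries. MyoCre mice had the genotype Myogenin-Cre/+, the Cre with no floxed Klf15 listed, and also gave 3 libraries. Cre was thus present in both groups, under control of Myogenin, which muscle cells express as they differentiate, so Klf15 in cells that never expressed Myogenin should be intact. The design text speaks of n = 4, and only these 6 libraries were analysed here. Whether each library came from its own mouse is not stated in the labels. Values of a group are given below in the order of its libraries 1, 2 and 3.

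The sarcomere is the repeating contractile unit of muscle. At its centre, in the M-band, myomesins tie neighbouring myosin filaments to each other and to titin, and obscurin-like 1 binds both titin and myomesin. On either side of the M-band, myosin-binding proteins C sit along the myosin filament and tune how myosin heads meet actin, in a slow form from Mybpc1 and a fast form from Mybpc2. Igfn1 was found as a partner of the kyphoscoliosis peptidase Ky and of filamin C in skeletal muscle.

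Levels are FPKM, fragment counts scaled by transcript length and library size, so they can be compared between genes. The summed FPKM of a library ran from 396375 to 466756 in K15SKO and from 397426 to 423214 in MyoCre. These sums are no depth, and read totals were not used here. Low values, under 0.1 FPKM, fall in steps of a read's worth, and by these steps the depth relative to MyoCre 1 was 0.78 to 1.57 in K15SKO and 1.08 and 1.33 in the other MyoCre libraries. Klf15 was at 2.22, 21.7 and 5.32 FPKM in the K15SKO libraries, against 35.2, 28.4 and 30.5 FPKM in the MyoCre libraries. Its log2 difference was −2.06 and did not pass the test over all genes (limma adjusted p = 0.273). In K15SKO 2, Klf15 stood at only −0.50 log2 units from the MyoCre mean. Muscle markers were present in every library, with a sum over 12 genes of 34226 to 57763 FPKM in K15SKO and 45876 to 54404 FPKM in MyoCre. The K15SKO libraries did not form an even group. Pearson correlations of log2 values over the genes tested were 0.968 to 0.975 between K15SKO 3 and the MyoCre libraries, and 0.942 and 0.88 between K15SKO 3 and K15SKO 1 and 2. K15SKO 1 correlated with the MyoCre libraries at 0.928 to 0.936. K15SKO 2 lay farthest from the rest, at 0.870 to 0.880 with the MyoCre libraries and 0.915 with K15SKO 1. The summed FPKM of 10 hepatocyte markers was 69.5, 5592 and 12.1 in the K15SKO libraries, against 4.14, 0.862 and 1.15 in the MyoCre libraries, so K15SKO 2 held the most liver transcripts.

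Promoter sequences of Igfn1, Mybpc1, Myom3 and Mybph are shown because the first 3 are the members whose groups did not overlap and Mybph had the widest spread. Each run holds the 250 bases before the annotated transcription start from RefSeq on GRCm38.p6, written 5′ to 3′ on the gene's strand. Klf15 is a Krüppel-like factor, a family known to bind CACCC boxes, and factors of the MyoD family bind E-boxes of the form CANNTG. Capitals mark CANNTG in the first 2 runs and CACCC or its reverse complement GGGTG in the last 2.
Igfn1, chr1:136006343-136006592, minus strand: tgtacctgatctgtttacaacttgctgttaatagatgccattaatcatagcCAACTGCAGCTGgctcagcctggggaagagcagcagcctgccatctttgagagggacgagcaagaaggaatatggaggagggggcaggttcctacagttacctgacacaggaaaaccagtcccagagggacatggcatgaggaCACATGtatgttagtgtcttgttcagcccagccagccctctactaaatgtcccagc
Mybpc1, chr10:88605153-88605402, minus strand: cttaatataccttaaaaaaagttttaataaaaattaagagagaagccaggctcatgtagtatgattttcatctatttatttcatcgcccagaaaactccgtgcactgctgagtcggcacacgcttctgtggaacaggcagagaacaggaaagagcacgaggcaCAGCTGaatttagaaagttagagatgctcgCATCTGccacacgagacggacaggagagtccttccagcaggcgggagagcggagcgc
Myom3, chr4:135759465-135759714, plus strand: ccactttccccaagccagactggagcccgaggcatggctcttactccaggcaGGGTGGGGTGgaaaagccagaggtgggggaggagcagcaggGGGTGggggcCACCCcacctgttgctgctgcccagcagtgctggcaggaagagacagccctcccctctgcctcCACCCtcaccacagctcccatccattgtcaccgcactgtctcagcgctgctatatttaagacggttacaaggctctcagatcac
Mybph, chr1:134193198-134193447, plus strand: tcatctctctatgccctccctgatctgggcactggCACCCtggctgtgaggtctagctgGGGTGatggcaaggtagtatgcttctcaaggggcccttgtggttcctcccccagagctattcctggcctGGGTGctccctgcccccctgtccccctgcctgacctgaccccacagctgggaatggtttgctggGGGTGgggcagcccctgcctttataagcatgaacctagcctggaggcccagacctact

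A search of both strands for CACCC in the 7 members with a promoter entry found 5 matches in Myom3, 4 in Mybph and none in the windows of Igfn1, Myom1, Obsl1, Mybpc1 or Mybpc2. Among 32851 promoter windows of the same length, 52.0% held at least 1 match, 2.14% at least 4 and 0.667% at least 5. CANNTG was found in all 7 windows, 3 times in Igfn1 and Myom1, 4 times in Obsl1, 2 times in Mybpc1 and 1 time each in Myom3, Mybpc2 and Mybph. It was present in 66.2% of all windows and at least 3 times in 12.2%. No match of one motif overlapped a match of the other in these 7 windows. The matches are letters in the sequence and were not set against any binding data.

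Igfn1 (ENSMUSG00000051985.12) lies on chromosome 1 from 135953578 to 136006342 on the minus strand of GRCm38, the assembly also called mm10. Its longest annotated coding transcript has 27 exons and 8989 bases. It was at 1.71, 1.59 and 2.18 FPKM in the K15SKO libraries, against 16.3, 14.3 and 10.5 FPKM in the MyoCre libraries. Every K15SKO library was below every MyoCre library, and the K15SKO libraries were close to each other. K15SKO 3, which correlated best with MyoCre over the genes tested, was also the K15SKO library nearest to MyoCre for Igfn1. The means were 1.83 ± 0.315 FPKM in K15SKO and 13.7 ± 2.98 FPKM in MyoCre (SD, n = 3 each), a ratio of K15SKO to MyoCre of 0.133.

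The rank of Igfn1 among the 11607 genes tested was lower in each K15SKO library than in any MyoCre library. It stood above 14.1%, 10.6% and 21.0% of these genes in the K15SKO libraries, against 71.6%, 68.3% and 59.5% in the MyoCre libraries. On the log2(FPKM + 1) scale, the difference of means, K15SKO minus MyoCre, was −2.37 (limma SE 0.18), and 18 of the 11607 genes had a lower difference. The 3 K15SKO libraries stood at −2.42, −2.49 and −2.19 log2 units from the MyoCre mean. The SD of the log2(FPKM + 1) level of Igfn1 was 0.16 in K15SKO and 0.31 in MyoCre. The median SD of all tested genes was 0.22 in K15SKO and 0.12 in MyoCre. The added 1 narrows this SD at the low levels of Igfn1 in K15SKO. In plain FPKM, Igfn1 spread 1.38-fold from lowest to highest in K15SKO and 1.56-fold in MyoCre. In whole muscle, fewer cells of a type and less RNA per cell cannot be told apart.

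**Figure D1:**
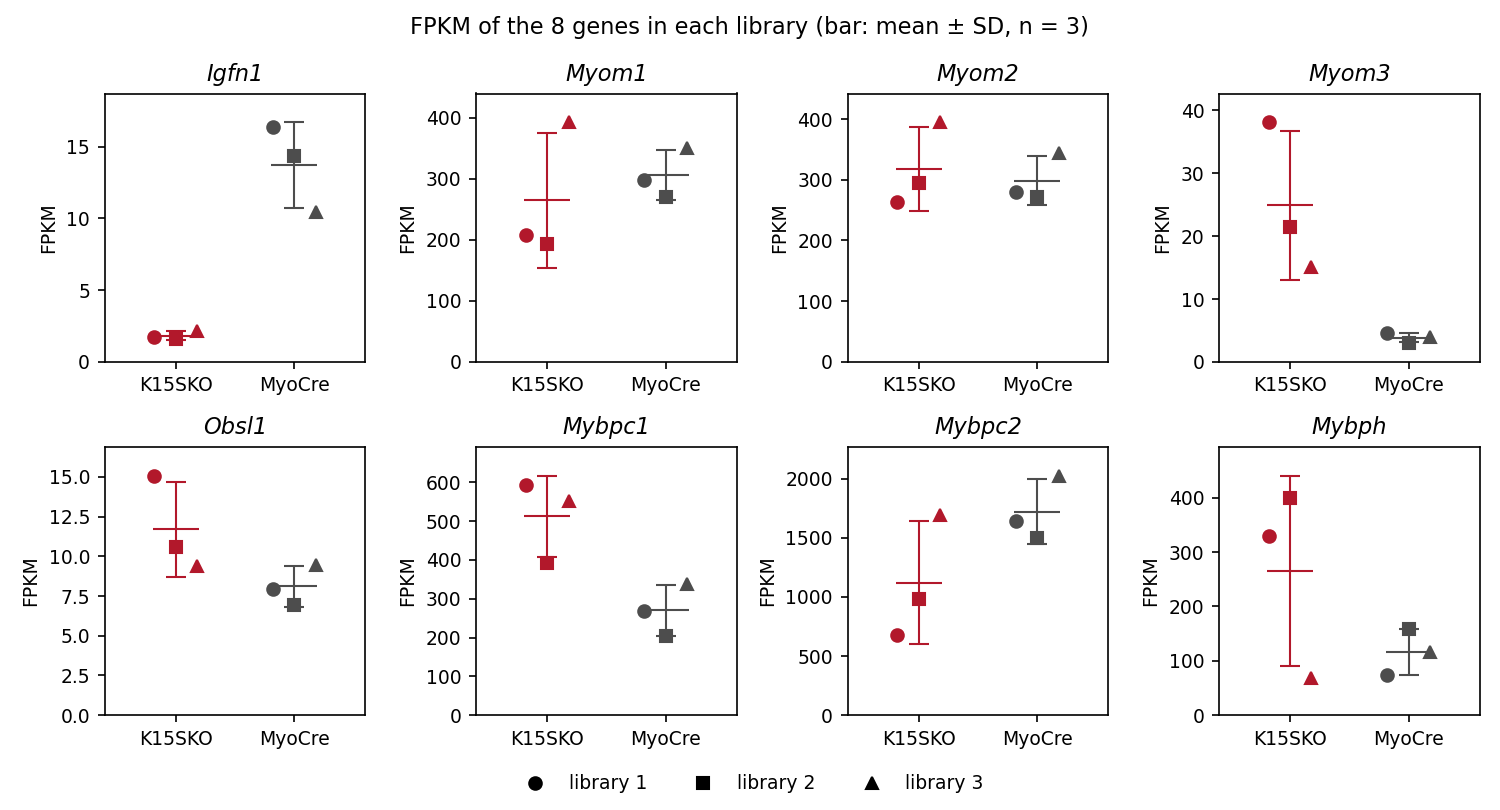
FPKM (linear axes from 0) of the 8 genes in K15SKO and MyoCre libraries, with points for libraries 1 to 3 and bars for the mean ± SD (n = 3 each). Igfn1 is lower, and Myom3 and Mybpc1 higher, in every K15SKO library than in any MyoCre library, and the other 5 genes overlap.

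Over the 8 genes, 5 had a positive and 3 a negative log2 difference, against 5576 and 6031 of the 11607 genes tested. Their median was 0.27, against −0.02 over all tested genes, and the median size without sign was 0.81, against 0.21. All 8 passed the filter of a mean of at least 1 FPKM over the 6 libraries. Under limma with a Benjamini-Hochberg adjusted p below 0.05 over all tested genes, 1 of the 8, Igfn1, was called, where 6 of 11607 genes (0.0517%) were called. Those 6 include Myh1, listed at exactly 0 in every K15SKO library, and Pvalb, listed at exactly 0 in every MyoCre library. Igfn1 was called in 7 of 13 alternative fits, and not in those without MyoCre 1, MyoCre 2, K15SKO 1 or K15SKO 2, nor with every gene kept or the replicate number as a block. Without K15SKO 3, 5 of the 8 were called, Igfn1, Myom1, Myom3, Mybpc2 and Mybph, where 24.2% of all genes tested were. The groups did not overlap for 2 members that were higher in K15SKO, where 13.4% of all tested genes were, and for 1 that was lower, where 11.3% were. Because this comparison was in view when the genes were chosen, these counts, calls included, only describe the fit over all genes and support nothing about the 8.

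**Figure D2:**
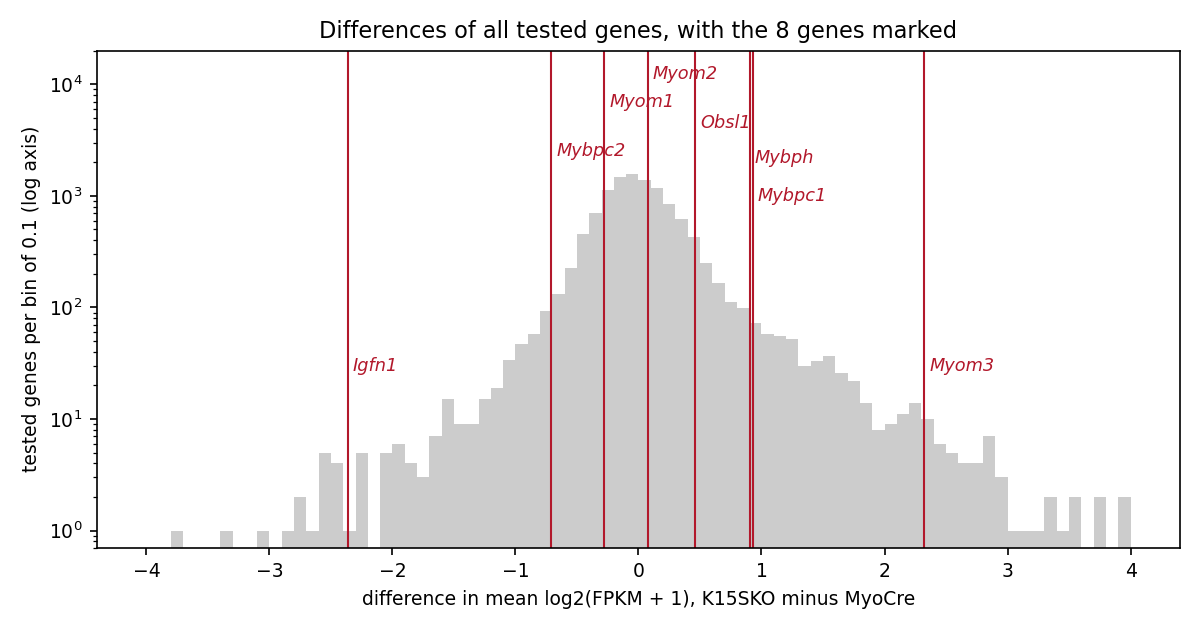
Distribution of the difference in mean log2(FPKM + 1), K15SKO minus MyoCre, over the genes tested (bins of 0.1 and a log vertical axis, 10 genes beyond the axis), with vertical lines at the 8 genes. Igfn1 at −2.37 and Myom3 at 2.32 lie in opposite tails, and Myom2 at 0.08 lies near the centre.

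The myomesins differed in level and in how they stood between the genotypes. On GRCm38, Myom1 (ENSMUSG00000024049.14) lies on chromosome 17 from 71002633 to 71126856 and Myom2 (ENSMUSG00000031461.4) on chromosome 8 from 15057653 to 15133541, both plus-strand genes. Myom1, the myomesin of all striated muscle, was at 209, 193 and 393 FPKM in the K15SKO libraries, against 299, 270 and 350 FPKM in the MyoCre libraries. Myom2, which encodes the M-protein of fast fibres, was at 263, 295 and 395 FPKM in the K15SKO libraries, against 280, 271 and 345 FPKM in the MyoCre libraries. Both genes were highest in library 3 of each group, and for both the groups overlapped. Their log2 differences were −0.28 (limma SE 0.29) for Myom1 and 0.08 (limma SE 0.19) for Myom2. The Myom1 difference was −0.60 without K15SKO 3 and −0.09 without K15SKO 2. That of Myom2 turned to −0.09 without K15SKO 3.

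Myom3 (ENSMUSG00000037139.15), the third myomesin, is known from slow and intermediate fibres and was the least abundant myomesin in every library. Its plus-strand locus on chromosome 4 of GRCm38 spans positions 135759715 to 135815564. It was at 38.1, 21.4 and 15.2 FPKM in the K15SKO libraries, against 4.58, 3.06 and 4.00 FPKM in the MyoCre libraries. All K15SKO libraries were above all MyoCre libraries, and they spread 2.51-fold from lowest to highest, against 1.50-fold in MyoCre. The means were 24.9 ± 11.9 FPKM in K15SKO and 3.88 ± 0.768 FPKM in MyoCre (SD, n = 3 each), and the log2 difference was 2.32 (limma SE 0.32). Of the genes tested, 55 had a higher difference.

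As a share of the myomesin FPKM, Myom3 made up 7.48%, 4.21% and 1.89% in the K15SKO libraries, against 0.785%, 0.562% and 0.573% in the MyoCre libraries. Myom1 made up 40.9%, 37.9% and 48.9% in the K15SKO libraries, against 51.2%, 49.7% and 50.1% in the MyoCre libraries. The sum of the 3 genes overlapped between the groups, at 607 ± 169 FPKM in K15SKO and 609 ± 80.3 FPKM in MyoCre (SD, n = 3 each). The Myom3 share was higher in every K15SKO library than in any MyoCre library. Myom1 and Myom2 were present at nearly equal levels in MyoCre, with a ratio of Myom1 to Myom2 of 0.794, 0.656 and 0.994 in the K15SKO libraries, against 1.07, 0.998 and 1.01 in the MyoCre libraries. The Myom1 gene span overlaps Myl12a on the other strand, which was at 638, 653 and 269 FPKM in the K15SKO libraries, against 173, 151 and 169 FPKM in the MyoCre libraries. The sources used here do not give strandedness, so reads from the shared part cannot be assigned with certainty.

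Mybpc1, the slow myosin-binding protein C gene (ENSMUSG00000020061.17), was higher in every K15SKO library than in any MyoCre library. It lies on chromosome 10 from 88518279 to 88605152 on the minus strand. It was at 592, 393 and 552 FPKM in the K15SKO libraries, against 268, 204 and 337 FPKM in the MyoCre libraries. The groups did not overlap, and K15SKO 2 came nearest to the MyoCre libraries. The means were 513 ± 105 FPKM in K15SKO and 270 ± 66.4 FPKM in MyoCre (SD, n = 3 each), a ratio of 1.90 and a log2 difference of 0.93 (limma SE 0.24).

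Mybpc2 (ENSMUSG00000038670.11), the fast form, lies on chromosome 7 from 44501699 to 44524656 on the minus strand and was the most abundant of the 8 genes in every library. It was at 681, 987 and 1693 FPKM in the K15SKO libraries, against 1639, 1497 and 2027 FPKM in the MyoCre libraries. K15SKO 1 and 2 were below all MyoCre libraries, and K15SKO 3 was inside their range. The log2 difference was −0.71 (limma SE 0.34) and was −0.40 without K15SKO 1. The ratio of Mybpc1 to Mybpc2 was 0.870, 0.399 and 0.326 in the K15SKO libraries, against 0.164, 0.136 and 0.166 in the MyoCre libraries. This ratio of the slow to the fast form was higher in all 3 K15SKO libraries, K15SKO 3 included, with means of 0.531 ± 0.295 in K15SKO and 0.155 ± 0.0165 in MyoCre (SD, n = 3 each).

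Mybph encodes myosin-binding protein H, a shorter relative of the C proteins, and had the widest spread of the 8 genes. Its locus (ENSMUSG00000042451.12) is on the plus strand of chromosome 1, positions 134193448 to 134201232. It was at 330.0, 399.9 and 68.3 FPKM in the K15SKO libraries, against 73.8, 159 and 116 FPKM in the MyoCre libraries. K15SKO 1 and 2 were above all MyoCre libraries, whereas K15SKO 3 was below them all. The log2 SD was 1.39 in K15SKO and 0.55 in MyoCre, and the log2 difference was 0.90 (limma SE 0.69). That difference was 1.70 without K15SKO 3 and 0.44 without K15SKO 2. Mybph made up 20.6%, 22.5% and 2.95% of the summed FPKM of the 3 myosin-binding protein genes in the K15SKO libraries, against 3.72%, 8.53% and 4.69% in the MyoCre libraries.

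**Figure D3:**
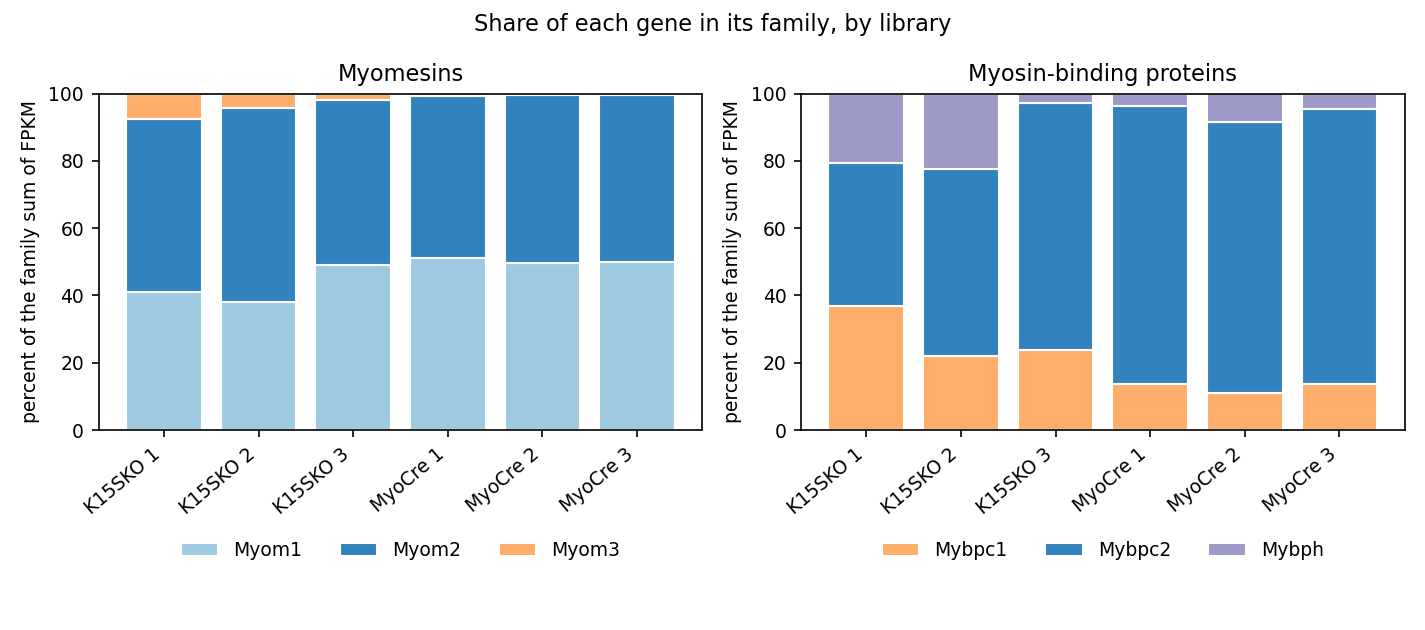
Stacked bars of each gene's percent of the summed FPKM of its family in K15SKO 1 to 3 and MyoCre 1 to 3, for the myomesins and the myosin-binding proteins. Myom3 reaches 7.48% in K15SKO 1 and stays under 1% in MyoCre, and Mybpc1 takes 22.1% to 36.9% in K15SKO against 11.0% to 13.6% in MyoCre.

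Obsl1, obscurin-like 1, which also belongs to a ubiquitin ligase complex with Cul7, is ENSMUSG00000026211.17 on chromosome 1 from 75479310 to 75506452 on the minus strand of GRCm38. It was at 15.1, 10.6 and 9.41 FPKM in the K15SKO libraries, against 7.97, 6.91 and 9.47 FPKM in the MyoCre libraries. K15SKO 1 and 2 were above the MyoCre libraries, and K15SKO 3 lay just under the highest of them, at levels far below those of Myom1 and Myom2. The log2 difference was 0.46 (limma SE 0.19) and 0.28 without K15SKO 1.

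**Figure D4:**
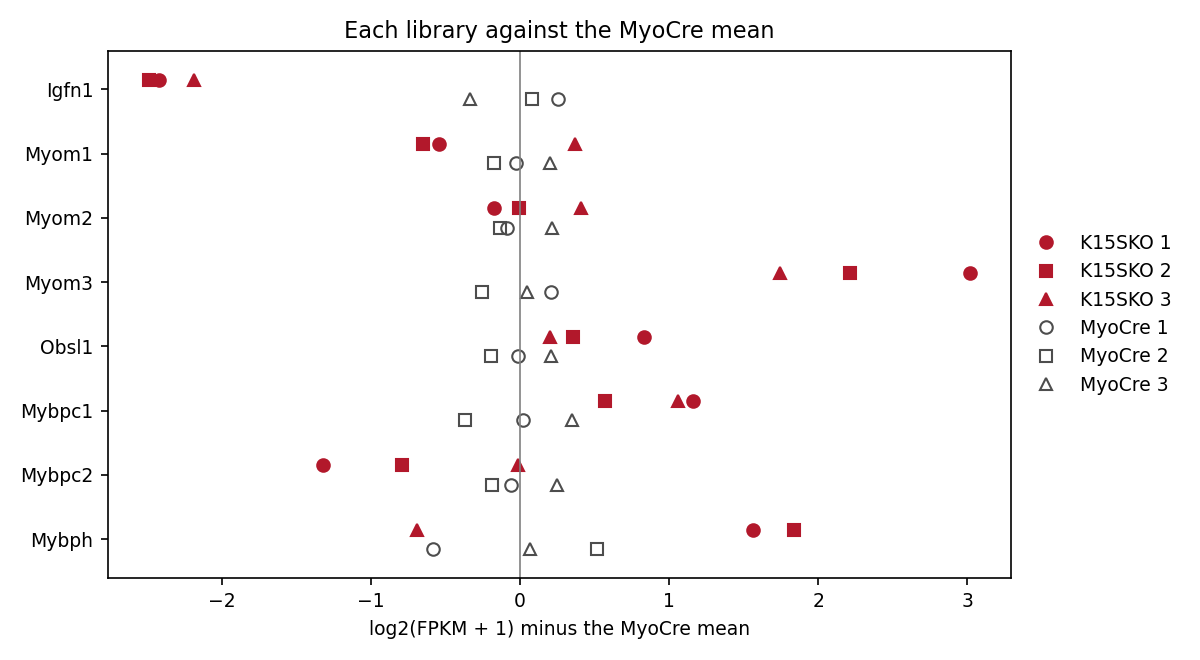
log2(FPKM + 1) of each library minus the MyoCre mean for the 8 genes, with filled red symbols for K15SKO 1 to 3 and open grey symbols for MyoCre 1 to 3. K15SKO 3 stays with the other K15SKO libraries for Igfn1, Myom3 and Mybpc1 but lies within the MyoCre range for Mybpc2 and Obsl1, above it for Myom1 and Myom2 and below it for Mybph.

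Among the 28 pairs of members, patterns were compared by the root mean square distance of log2(FPKM + 1) over the 6 libraries after each gene was centred on its mean. Myom1 and Myom2 lay closest, at 0.25, then Myom1 and Mybpc2 at 0.29 and Obsl1 and Mybpc1 at 0.32. Igfn1 and Myom3 were farthest apart, at 2.39. Genes were not scaled, so the distance largely follows their differences between the genotypes, which were in view when the members were chosen. Of all genes tested, the 5 nearest to Igfn1 were Npc1 (0.31), Mettl21c (0.40), Mss51 (0.44), Slc36a2 (0.45) and Tmem100 (0.45), where the median gene was at 1.20. Npc1, which exports cholesterol from lysosomes, was at 6.24, 8.98 and 7.08 FPKM in the K15SKO libraries, against 35.9, 29.8 and 25.7 FPKM in the MyoCre libraries. The 5 nearest to Myom3 were Casq2 (0.24), Smtnl1 (0.33), Otud1 (0.38), Fhl1 (0.40) and Tm6sf1 (0.41), where the median gene was at 1.26. Casq2, the calsequestrin of slow and cardiac muscle, was at 56.8, 24.5 and 19.3 FPKM in the K15SKO libraries, against 5.62, 4.19 and 3.26 FPKM in the MyoCre libraries.

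Markers of fibre and cell types also varied between the libraries. The summed FPKM of 10 slow fibre markers was 875, 261 and 1262 in the K15SKO libraries, against 237, 335 and 59.0 in the MyoCre libraries, and 3 of the 10 were higher without overlap, where 13.4% of all tested genes were. K15SKO 2 was inside the MyoCre range of this sum. Casq2, Myoz2 and Tnni1, the 3 without overlap, are above all MyoCre libraries in K15SKO 2 by that choice. Tnnt1, Tnnc1 and Atp2a2 stood at 1.15, 0.35 and 0.33 log2 units from the MyoCre mean in K15SKO 2. Myl3, Tpm3, Myl2 and Myh7 stood at −0.41, −0.25, −0.23 and −0.21 in the same library. The part of slow fibres in the levels of Myom3 and Mybpc1 was not tested. The sum of 12 genes of regenerating or denervated muscle was 146, 110 and 48.7 in the K15SKO libraries, against 41.6, 43.4 and 51.0 in the MyoCre libraries, and 8 of the 11 tested were higher without overlap, against 13.4% of all tested genes. Myog, the myogenin gene itself, was at 31.9, 27.3 and 3.90 FPKM in the K15SKO libraries, against 2.36, 2.20 and 1.84 FPKM in the MyoCre libraries. The 10 macrophage markers summed to 341, 190 and 39.8 FPKM in the K15SKO libraries, against 52.0, 49.1 and 43.2 FPKM in the MyoCre libraries. Mybph was high in K15SKO 1 and 2, the libraries where both sums were high, and the part of these cells in its level was not tested.

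The 8 adipocyte markers summed to 181, 118 and 236 FPKM in the K15SKO libraries, against 560, 1064 and 411 FPKM in the MyoCre libraries, and the 7 tested were lower without overlap, against 11.3% of all tested genes. Igfn1 was also lower in every K15SKO library, and the part of fat in its level was not tested. The 9 fast fibre markers in the matrix summed to 38863, 41448 and 72389 FPKM in the K15SKO libraries, against 49328, 49819 and 57825 FPKM in the MyoCre libraries. That sum includes Pvalb, at 5041, 6810 and 15958 FPKM in the K15SKO libraries and listed at 0 in every MyoCre library. It also includes Myh1, listed at 0 in every K15SKO library, and these zeros can be failed estimates. The median of the 9 markers stood at −0.81, −0.69 and 0.13 log2 units from the MyoCre mean in the K15SKO libraries. In the MyoCre libraries that median stood at −0.05, −0.12 and 0.14. Tendon markers summed to 67.0, 33.5 and 27.4 FPKM in the K15SKO libraries, against 23.9, 21.8 and 20.3 FPKM in the MyoCre libraries. Endothelial markers summed to 40.4, 49.1 and 81.1 FPKM in the K15SKO libraries, against 73.0, 57.8 and 70.7 FPKM in the MyoCre libraries. Cardiomyocyte markers summed to 21.1, 17.2 and 4.88 FPKM in the K15SKO libraries, against 0.809, 0.955 and 1.02 FPKM in the MyoCre libraries. Most of the cardiomyocyte sum was Tnnt2 in K15SKO 1 and 2, at 18.2 and 15.8 FPKM, and Myh6 in K15SKO 3, at 3.68 FPKM. Only 1 of the 8 cardiomyocyte markers, Tnnt2, passed the filter. The tendon and cardiomyocyte sums were above MyoCre in every K15SKO library, and the endothelial sum overlapped. Whether any of these cells bore on the 8 genes was not tested. No marker of these lists was at 0 in all 6 libraries. Mybpc3, the cardiac myosin-binding protein C gene, was listed at 0.0212, 0.0119 and 0 FPKM in K15SKO 1 to 3 and at 0 in every MyoCre library.

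**Figure D5:**
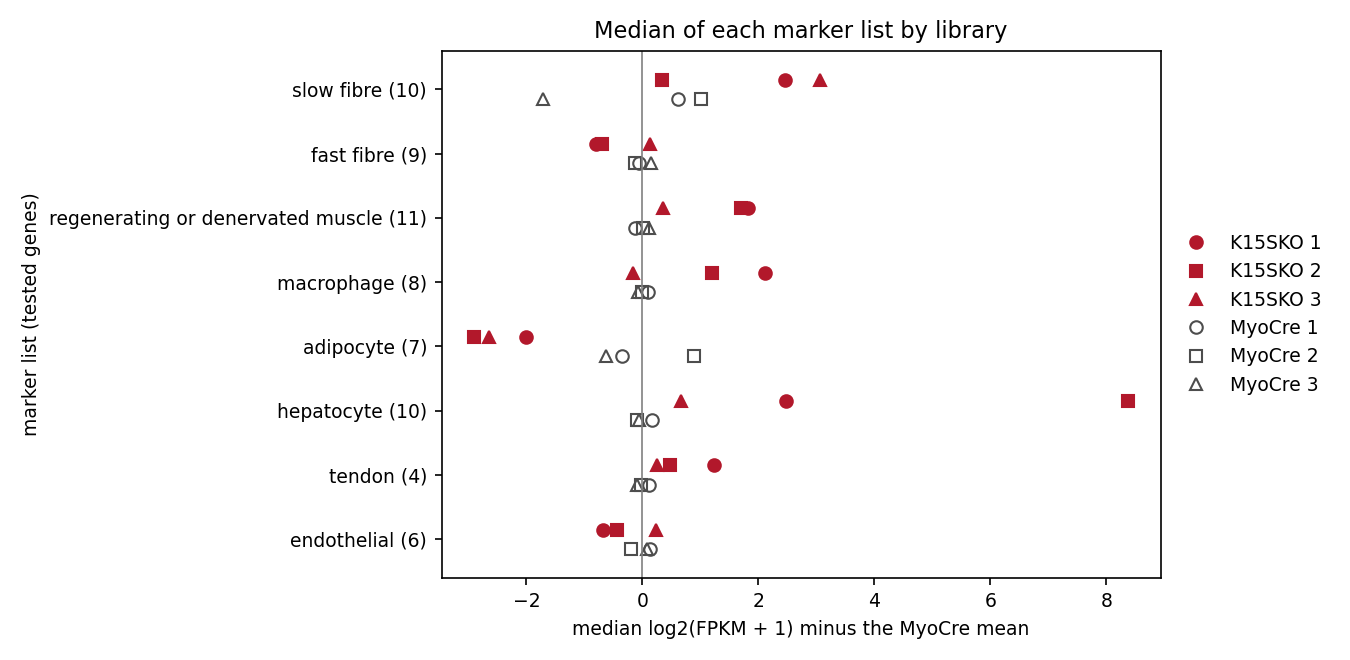
Median over each marker list of log2(FPKM + 1) minus the MyoCre mean, with filled red symbols for K15SKO 1 to 3, open grey symbols for MyoCre 1 to 3 and the number of tested genes in brackets. Regeneration and macrophage markers are high in K15SKO 1 and 2. In K15SKO 3, regeneration markers are at 0.36, above the MyoCre libraries at −0.13 to 0.11, and macrophage markers are close to MyoCre at −0.17. Hepatocyte markers reach 8.37 in K15SKO 2.

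Other genes of the sarcomere were taken from 5 lists, 57 genes in all, of which 51 were tested. The lists were chosen by role, with earlier results of these data known. Their counts, shares and medians, here and below, are therefore a description and support nothing about the lists. Under limma with adjustment over all tested genes, 1 was called, Myh1, a fast myosin heavy chain, with 0 higher, where 0.0172% of all tested genes were, and 1 lower, where 0.0345% were. Myh1 was listed at 0 FPKM in the K15SKO libraries, against 486, 350 and 505 FPKM in the MyoCre libraries, so the call rests on values of exactly 0. Of the 51, 15 were higher and 2 lower without overlap, 29.4% and 3.92% of them, against 13.4% and 11.3% of all tested genes, and their median log2 difference was 0.27, against −0.02. Without K15SKO 3, 24 of the 51 were called, where 24.2% of all genes tested were. Of these 16 were higher, against 10.9% of all genes, and 8 lower, against 13.3%.

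Of 16 genes of the titin scaffold, 0 were called, and the median log2 difference was 0.02. Fhl1, a LIM protein that binds titin and myosin-binding protein C, was at 2938, 1827 and 564 FPKM in the K15SKO libraries, against 369, 257 and 267 FPKM in the MyoCre libraries (limma adjusted p = 0.269). All K15SKO libraries were above MyoCre, with K15SKO 3 the lowest of them. The log2 difference was 0.49 for Mlip, 0.65 for Fhl2 and 0.27 for Nbr1 (limma adjusted p = 0.288, 0.293 and 0.304). Ttn, the titin gene, is not named by the rule and was picked with its values already seen. It was at 97.2, 77.9 and 159 FPKM in the K15SKO libraries, against 92.3, 89.6 and 156 FPKM in the MyoCre libraries (limma adjusted p = 0.957). Its groups overlapped, and it was highest in library 3 of each group, as Myom1 and Myom2 were.

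Of 11 other muscle proteins with immunoglobulin or fibronectin domains or close kinship, 7 were tested and 0 were called, with a median log2 difference of −0.04. Mylk2, the skeletal myosin light chain kinase, overlapped between the groups and was at 236, 269 and 575 FPKM in the K15SKO libraries, against 691, 575 and 731 FPKM in the MyoCre libraries (limma adjusted p = 0.279). Myot, the Z-disc protein myotilin, was at 712, 669 and 856 FPKM in the K15SKO libraries, against 617, 523 and 567 FPKM in the MyoCre libraries (limma adjusted p = 0.288). Myotilin transcripts were thus higher in each K15SKO library without passing the test. The log2 difference was 0.27 for Palld and −0.65 for Alpk2 (limma adjusted p = 0.315 and 0.401).

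Of 7 genes of Igfn1 partners and the Xin and filamin group around them, 0 were called, with a median log2 difference of 0.37. Flnc, filamin C, was at 288, 182 and 183 FPKM in the K15SKO libraries, against 128, 89.2 and 123 FPKM in the MyoCre libraries (limma adjusted p = 0.269). Ky, the kyphoscoliosis peptidase, was at 31.5, 41.2 and 62.9 FPKM in the K15SKO libraries, against 84.5, 60.0 and 70.7 FPKM in the MyoCre libraries (limma adjusted p = 0.288). Filamin C was higher in each K15SKO library, and Ky overlapped, with K15SKO 3 inside the MyoCre range. The log2 difference was 0.74 for Xirp2 and 0.95 for Eef1a1 (limma adjusted p = 0.272 and 0.328).

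Of 10 tested genes of thick filament assembly and its chaperones, 0 were called, with a median log2 difference of 0.80, and the groups did not overlap for 5, all higher in K15SKO, where 13.4% of all tested genes were. Hspb7, a small heat shock protein, was at 1442, 1019 and 273 FPKM in the K15SKO libraries, against 186, 112 and 107 FPKM in the MyoCre libraries (limma adjusted p = 0.267). Cryab, alpha-B-crystallin, was at 5368, 4517 and 942 FPKM in the K15SKO libraries, against 630, 467 and 582 FPKM in the MyoCre libraries (limma adjusted p = 0.272). The log2 difference was 2.12 for Csrp3, a LIM protein of slow and stressed muscle, and 0.95 for Hspb6 (limma adjusted p = 0.272 and 0.280). Hspb7, Cryab and Csrp3 were highest in K15SKO 1 and nearest to MyoCre in K15SKO 3, in the order that the regeneration and macrophage sums had, and the part of those cells was not tested. Without K15SKO 3, 6 of these 10 were called, each of them higher, where 10.9% of all genes were called higher.

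Of 11 tested myosin chain genes, 0 were called higher and 1, Myh1, lower, with a median log2 difference of 1.55. Myh2, the type IIA heavy chain, was at 553, 212 and 404 FPKM in the K15SKO libraries, against 111, 72.9 and 89.3 FPKM in the MyoCre libraries (limma adjusted p = 0.248). Myh8, the perinatal heavy chain, was at 5.89, 5.25 and 1.06 FPKM in the K15SKO libraries, against 0.471, 0.566 and 0.793 FPKM in the MyoCre libraries (limma adjusted p = 0.272). Myl1, the fast essential light chain, was at 5963, 5898 and 8324 FPKM in the K15SKO libraries, against 8750, 9837 and 10109 FPKM in the MyoCre libraries (limma adjusted p = 0.279). Myh2 shared with Mybpc1 the order of the K15SKO libraries, highest in K15SKO 1 and lowest in K15SKO 2.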

How the data were processed

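Quadriceps RNA was sequenced, and the authors deposited FPKM for 23314 genes in 6 libraries. The submitters' processing notes name STAR, Cufflinks, Cuffdiff and mm10, and the sources used here give neither versions nor absolute depth. The unit is read from these tools and the values. FPKM keeps no counts, so counting error cannot be weighed, no counting interval is given, and an exact 0 may be a failed estimate. Columns were matched by the sample descriptions, and 0 belonged to no sample.

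limma 3.58.1 (R 4.3.3) was run on log2(FPKM + 1) of the 11607 genes with a mean of at least 1 FPKM over the 6 libraries, using eBayes with a trend in intensity. Tests were two-sided, adjusted by Benjamini-Hochberg at a threshold of 0.05. This scale understates differences of low genes. P-values measure the spread between these libraries, which may be technical. The fit was run on simulated data with known shifts and independent noise of the same spread in both groups. K15SKO libraries spread more than MyoCre libraries, so that run does not show how the fit performs on these data. Tables were made with Python 3.11.15.

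The members and lists were chosen with earlier results of these data known. The rule for named genes takes the 8 members, every called gene and up to 4 of smallest p per sarcomere list, and the 5 nearest genes to Igfn1 and to Myom3, leaving out predicted, Rik, pseudogene, microRNA and snoRNA symbols. Klf15, Myl12a, Ttn, Mybpc3 and single marker genes such as Myog, Pvalb and Tnnt2 are named outside this rule. Coordinates came from GENCODE M21 on GRCm38, where 23193 IDs matched without version. Promoters came from RefSeq, in which 7 of the 8 members matched. Alternatives changed 1 choice at a time: a pseudocount of 0.1; no filter or a minimum mean of 5 FPKM; quantile or median-of-ratios scaling; no trend in eBayes; a block for the replicate number; and leaving out any 1 library. Myh4 and Cavin4 were not analysed here.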

Additional observations from a re-analysis of the deposited data

How the results depend on the processing

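Over 13 alternatives, the sign of the log2 difference held for 7 of the 8 genes. The exception was Myom2, at −0.09 without K15SKO 3 and also negative after quantile normalization. The difference of Igfn1 ran from −2.83 with a pseudocount of 0.1 to −2.24 without MyoCre 1, that of Myom3 from 1.98 to 2.62 and that of Mybpc1 from 0.75 to 1.11. The limma count of 6 called genes became 3 with no filter, 3 with the replicate block and 3 to 2802 with 1 library left out. It was 3 without MyoCre 1, 3 without MyoCre 2, 4 without K15SKO 1, 4 without K15SKO 2 and 2802 without K15SKO 3, and the cause was not tested. The count of called sarcomere list genes was 1 in 12 alternatives and ran from 1 to 24 with 1 library left out, 24 being without K15SKO 3. Of 258 alternative fits of the named list genes, 243 kept direction and side of the threshold, and 15 passed it, all without K15SKO 3. Deviations from the group means correlated at 0.002, 0.085 and 0.094 between libraries of the same number. Between libraries of different number they correlated at −0.095 to 0.007. These small values do not settle whether the replicate numbers pair the libraries. With the replicate block, the limma SE rose for Igfn1, from 0.18 to 0.20. It fell for the other members, for Mybpc1 from 0.24 to 0.15. Depth is known only in relative terms.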
